A study of Mus musculus with 12 samples.

Results

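Mast cell genes were described in 12 RNA-seq libraries of mouse skin wounds, as the 10 rows of the deposited tables named Cpa3, Cma1, Mcpt4, Tpsb2, Tpsab1, Kit, Ms4a2, Fcer1a, Hdc and Mrgprb2, out of 55487 genes listed. All 10 were found, and all 10 had a mean of at least 0.3 TPM (a measure of a gene's share of the RNA molecules, corrected for transcript length) in each group. Male C57BL/6JNarl mice, 6 weeks old by the study's methods, carried full-thickness punch wounds on the back. The sham group received Pluronic F127 (P-F127), a carrier gel, once daily, and the CAP-treated wounds received the same gel with 10 µM capsaicin (CAP), the pungent ligand of the sensory nerve channel TRPV1. There were 3 libraries each of sham wounds at day 3, CAP-treated wounds at day 3, sham wounds at day 6 and CAP-treated wounds at day 6. Each sample was the wound with its surrounding skin, no mutant allele or transgene is named, and unwounded skin was not analysed here. A mouse carried more than 1 wound, and no source used here ties a library to a mouse, so p-values measure the spread between these libraries only. Nor do the sources say whether the libraries of both days were prepared together.

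Mast cells are resident immune cells of the dermis. They mature in the tissue under KIT ligand, store proteases, histamine and heparin in granules, and release them when IgE bound to its receptor is crosslinked or when other receptors are engaged. In mouse skin most are connective tissue mast cells, which carry chymases, tryptases and carboxypeptidase A3 and respond to cationic peptides through MRGPRB2. Since whole tissue was sequenced, fewer mast cells and less RNA per mast cell cannot be told apart in any value below.

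The members were read as 5 kinds of gene. Cpa3 (carboxypeptidase A3, chr3:20215620-20242181), the chymases Cma1 (chr14:55941451-55944675) and Mcpt4 (chr14:56059629-56062313) and the tryptases Tpsb2 (chr17:25366305-25369098) and Tpsab1 (chr17:25343245-25345562) encode granule proteases. Hdc (histidine decarboxylase, chr2:126593667-126619299) encodes the enzyme that makes histamine. Fcer1a (chr1:173221284-173227214) and Ms4a2 (chr19:11615523-11623719) encode the alpha and beta chains of the high-affinity IgE receptor, Kit (chr5:75574916-75656722) the receptor for KIT ligand, and Mrgprb2 (chr7:48550965-48558086) the peptide receptor. Tpsb2 and Kit lie on the plus strand and the others on the minus strand of GRCm38, and all 10 are annotated as protein coding. Cpa3 alone overlaps another annotated gene, the microRNA gene Mir7007. Of the 31-base stretches of their transcripts, 12.2% of Mcpt4 occurred in another gene as well, most often in Cma2, and 10.6% of Cma1, most often in Gm48934. How far the shared stretches alter the levels of Mcpt4 and Cma1 was not tested. Cma2 itself was listed at no more than 0.37 TPM. The share was 3.96% for Ms4a2 and under 1% for the other members, including the paired tryptases Tpsb2 (0.557%) and Tpsab1 (0.419%).

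Mast cell genes are known targets of GATA2 and of MITF. The 250 bases before the RefSeq start (GRCm38.p6) of 8 members were searched on both strands for TGATAA and AGATAA, forms of the GATA motif, and for the E-boxes CATGTG and CACGTG. The search covered all 250 bases, and bases from the first annotated exon on were left out of the printed stretches only. TGATAA or AGATAA was found for 5 of 8 members (Cpa3, Mcpt4, Ms4a2, Fcer1a and Mrgprb2), beside 16.6% of all 32851 promoters. CATGTG was found in 1 of 8 (Fcer1a) beside 12.3% of all, and CACGTG in 0 of 8 beside 6.02%. No motif was found for Cma1, Kit or Hdc. A match is a description of letters in this window and not a bound site. The printed promoters are those of a carboxypeptidase and a chymase that moved together in these data, of the member with the most matches, and of Hdc, whose levels went another way. They are examples, and a link between matches and levels was not tested. Cma1, whose levels were the closest to those of Mcpt4, had no match, and Mrgprb2, which followed the proteases less closely, had 1. The stretches run 5′ to 3′ on the minus strand, at chr3:20242182-20242431, chr14:56062314-56062560, chr19:11623720-11623969 and chr2:126618679-126618928. Capitals mark TGATAA or AGATAA, or TTATCT where AGATAA is on the other strand. Counted back from the RefSeq start, the match began at base 46 for Cpa3, at base 103 for Mcpt4 and at bases 224, 37 and 11 for Ms4a2. The Hdc stretch lies within an intron of a longer gene model.
Cpa3: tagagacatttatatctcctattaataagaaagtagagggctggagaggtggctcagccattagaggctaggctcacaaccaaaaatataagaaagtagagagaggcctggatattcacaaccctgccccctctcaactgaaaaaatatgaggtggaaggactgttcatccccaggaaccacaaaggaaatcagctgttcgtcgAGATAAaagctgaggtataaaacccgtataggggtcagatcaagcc
Mcpt4: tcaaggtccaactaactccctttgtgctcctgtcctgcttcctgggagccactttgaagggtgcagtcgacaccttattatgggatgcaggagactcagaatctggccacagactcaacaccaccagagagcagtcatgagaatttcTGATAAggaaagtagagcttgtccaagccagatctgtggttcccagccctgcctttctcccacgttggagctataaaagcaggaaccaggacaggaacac
Ms4a2: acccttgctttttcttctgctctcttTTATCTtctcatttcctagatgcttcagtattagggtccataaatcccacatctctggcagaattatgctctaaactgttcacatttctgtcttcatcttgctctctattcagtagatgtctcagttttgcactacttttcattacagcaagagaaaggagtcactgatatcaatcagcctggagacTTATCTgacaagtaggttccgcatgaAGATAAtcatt
Hdc: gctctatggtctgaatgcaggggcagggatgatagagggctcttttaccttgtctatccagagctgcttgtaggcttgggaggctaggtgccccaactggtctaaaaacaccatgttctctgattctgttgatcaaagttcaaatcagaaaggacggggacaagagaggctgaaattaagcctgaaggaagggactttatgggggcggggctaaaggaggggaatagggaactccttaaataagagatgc

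The labelled tissue held mast cell transcripts in every library, with 119 of 120 member values at 0.3 TPM or above. On the TPM scale, the levels fell into a high and a low set. Means over the 12 libraries were 33.3 TPM for Mcpt4, 33.0 for Tpsb2, 27.2 for Hdc, 27.1 for Cpa3 and 26.4 for Cma1, and these neighbours overlapped in their ranges. Kit followed at 3.35 TPM, Mrgprb2 at 2.0, Fcer1a at 1.72, Tpsab1 at 0.790 and Ms4a2 at 0.560, again with overlapping ranges between neighbours. The tryptases differed most within 1 family, since Tpsb2 exceeded Tpsab1 by between 24.1-fold and 67.7-fold in each library. C57BL/6 mice are known to lack the tryptase that Tpsab1 encodes. The mucosal mast cell proteases Mcpt1 and Mcpt9 were listed at 0 in all libraries, and Mcpt2 was above 0 in 1 library only.

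**Figure D1:**
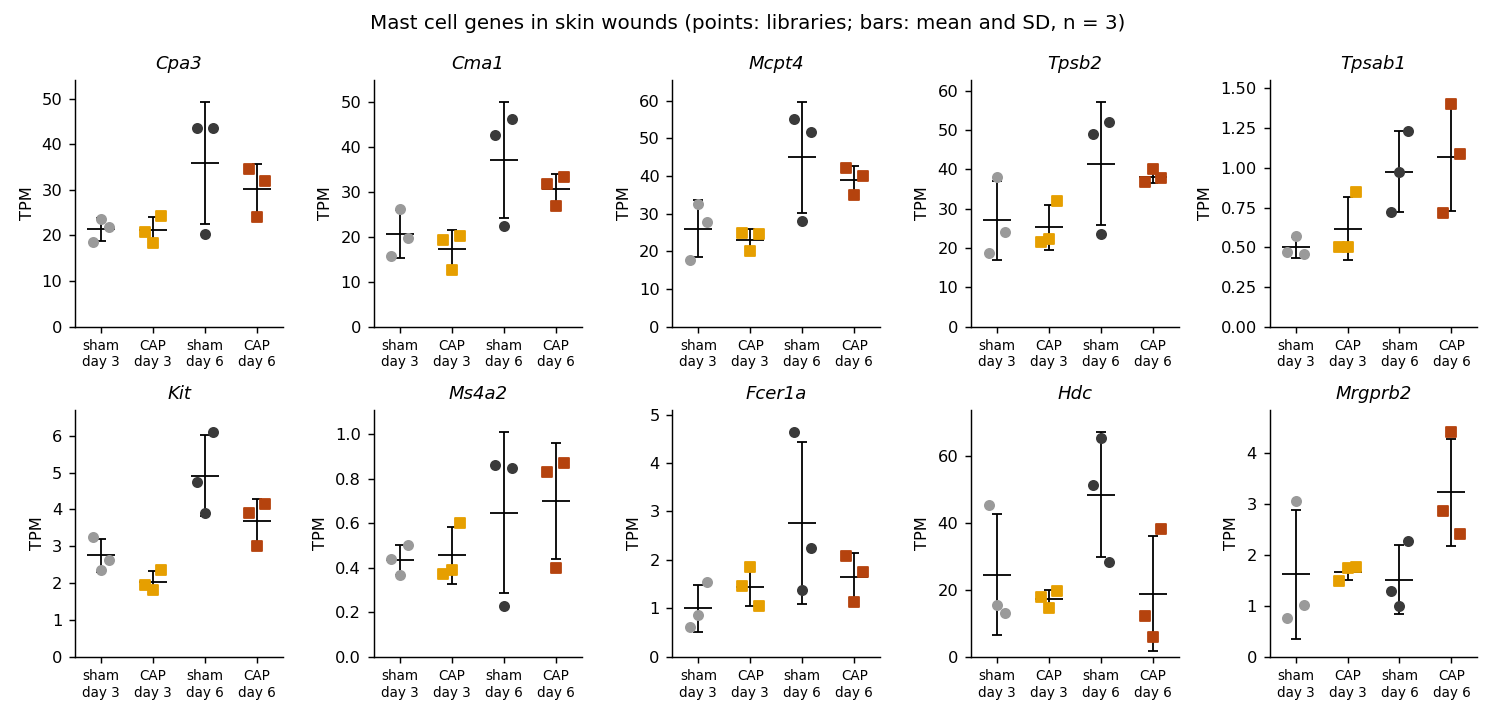
TPM of the 10 mast cell genes in each library (points) with the mean and SD of 3 libraries (bars), by group on the x axis; each panel has its own y axis from 0. Kit is higher in all 3 day 6 libraries than in all 3 day 3 libraries of its treatment, 1 sham library of day 6 lies near the day 3 level in Cpa3, Cma1, Mcpt4 and Tpsb2, and Hdc spreads from 5.92 to 65.2 TPM.

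With sham and CAP-treated wounds averaged, Kit was higher at day 6 than at day 3, and the other 9 members had positive differences that did not pass adjustment. All 10 log2 differences were thus above 0, beside 46.4% of the 20267 genes tested, and their median was 0.67 beside -0.02 over all genes. At an unadjusted p under 0.05, 7 members were higher, beside 7.18% of all genes higher at that p. None of the 10 reached the study's threshold (unadjusted p under 0.05 and 2-fold), beside 3.26% of all genes past it in either direction. Kit alone was called after Benjamini-Hochberg adjustment, which called 0.543% of all genes higher.

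Kit read 3.25, 2.36 and 2.64 TPM in the sham group and 1.95, 1.81 and 2.37 TPM in CAP-treated wounds at day 3. At day 6 it read 4.74, 3.92 and 6.09 TPM in the sham group and 3.92, 3.00 and 4.14 TPM in CAP-treated wounds. Within each treatment the days did not overlap, and 5 of the 6 day 6 libraries lay above all 6 day 3 libraries. The receptor gene rose 1.75-fold (log2 difference 0.81, SE 0.151, limma adjusted p = 0.0332, exact permutation p = 0.005, the smallest it can give). Over 17 alternative settings the limma adjusted p ranged from 0.0160 to 0.0873 and was under 0.05 in 7. It was above 0.05 with no filter and without any 1 of 9 libraries, the exceptions being CAP day 3 replicate 3, sham day 6 replicate 2 and CAP day 6 replicate 2.

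The granule proteases Cpa3, Cma1, Mcpt4 and Tpsb2 shared 1 pattern over the libraries. Cpa3 was at 18.6, 23.6 and 21.9 TPM (sham) and 20.8, 18.4 and 24.1 TPM (CAP) at day 3, and at 43.5, 20.3 and 43.6 TPM (sham) and 34.5, 24.0 and 31.9 TPM (CAP) at day 6. Sham replicate 2 of day 6 was thus within the day 3 range, and the other sham libraries of that day were the highest of all. Mcpt4 was at 17.7, 32.5 and 27.9 TPM (sham) and 24.8, 20.001 and 24.6 TPM (CAP) at day 3, and at 55.1, 28.1 and 51.6 TPM (sham) and 42.3, 34.9 and 39.9 TPM (CAP) at day 6. The same sham library was low, and the CAP-treated wounds of the 2 days did not overlap. Cma1 ranged from 12.5 to 26.3 TPM at day 3 and from 22.4 to 46.3 TPM at day 6, and Tpsb2 from 18.8 to 38.2 TPM and from 23.5 to 52.0 TPM.

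Averaged over the treatments, the log2 difference between the days was 0.83 for Cma1 (SE 0.202, limma adjusted p = 0.0687, exact permutation p = 0.01). It was 0.76 for Mcpt4 (SE 0.187, limma adjusted p = 0.0695, exact permutation p = 0.01), a chymase that also cleaves matrix proteins. Cpa3 differed by 0.59 (limma adjusted p = 0.141, exact permutation p = 0.035) and Tpsb2 by 0.60 (limma adjusted p = 0.189, exact permutation p = 0.03). None of these 4 passed the adjusted threshold, although each had an unadjusted p under 0.05. The summed level of the 4 genes was 70.8 to 120.5 TPM in sham and 73.3 to 100.8 TPM in CAP-treated wounds at day 3, and 94.3 to 193.5 TPM and 125.8 to 145.3 TPM at day 6. Only the CAP-treated wounds were apart by day in this sum.

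The scarce tryptase gene Tpsab1 differed by 0.76 (limma adjusted p = 0.117, exact permutation p = 0.01), with 0.46 to 0.85 TPM at day 3 and 0.72 to 1.40 TPM at day 6. Fcer1a, the chain that binds IgE, differed by 0.74 (limma adjusted p = 0.264, exact permutation p = 0.08). Its levels were 0.61 to 1.85 TPM at day 3 and 1.13 to 4.63 TPM at day 6, with 3 of 6 day 6 libraries above all of day 3. Ms4a2, Hdc and Mrgprb2 differed by 0.41, 0.42 and 0.47, with limma unadjusted p values of 0.226, 0.364 and 0.170. The days overlapped for each of these 3 genes.

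**Figure D2:**
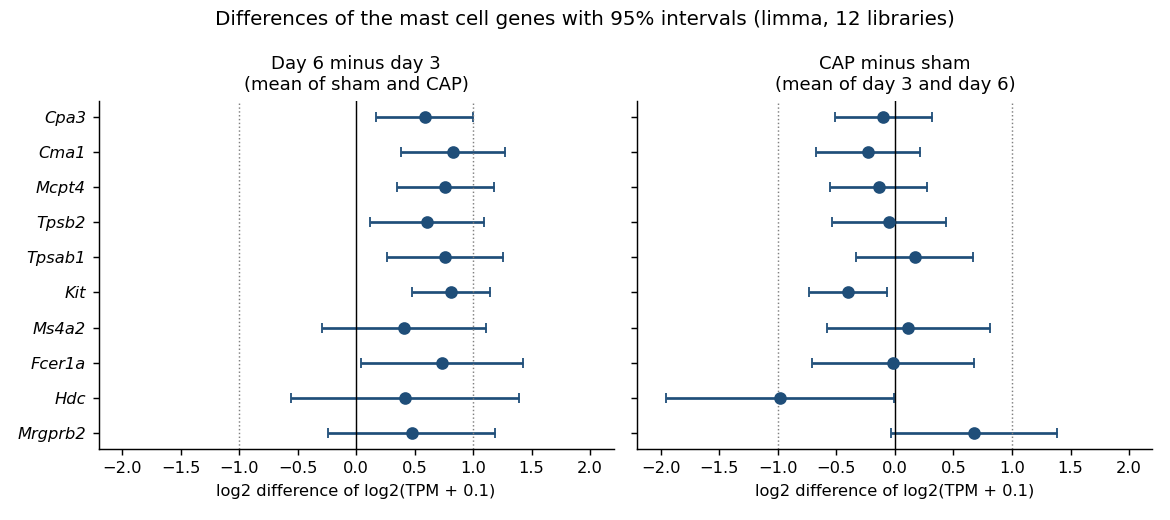
Log2 difference of log2(TPM + 0.1) for each member (points) with its 95% interval (bars) from limma over 12 libraries, for day 6 minus day 3 on the left and CAP minus sham on the right; dotted lines mark 2-fold. All 10 points of the day comparison are above 0 and 7 intervals exclude 0, whereas in the CAP comparison the intervals of Kit and Hdc lie below 0.

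Within the sham group alone, 5 members were higher at day 6 at an unadjusted p under 0.05, beside 8.05% of all genes (Kit, Cma1, Fcer1a, Tpsab1 and Mcpt4). Fcer1a was the 1 member past the study's threshold, beside 2.13% of all genes higher past it, with 0.61, 0.86 and 1.55 TPM at day 3 and 4.63, 1.39 and 2.25 TPM at day 6. Its groups overlapped (log2 difference 1.30, limma adjusted p = 0.253, exact permutation p = 0.2). Kit and Tpsab1 did not overlap between the days, beside 10.8% of genes with no overlap and higher at day 6. Without sham replicate 2 of day 6, 4 members were past the threshold (Cpa3, Cma1, Mcpt4 and Fcer1a), so this library decided the count. Fcer1a itself passed in 2 of the 6 fits that left out 1 library, those without sham replicate 3 of day 3 or sham replicate 2 of day 6.

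Within the CAP-treated wounds, 6 members were higher at day 6 at an unadjusted p under 0.05, beside 5.66% of all genes (Mcpt4, Cma1, Kit, Tpsb2, Mrgprb2 and Cpa3). None was past the study's threshold, beside 2.79% of all genes in either direction, and none had a limma adjusted p under 0.05. Mcpt4, Cma1, Kit, Tpsb2 and Mrgprb2 did not overlap between the days, beside 8.05% of genes without overlap and higher. Mcpt4 had the smallest spread (log2 difference 0.75, limma adjusted p = 0.270, exact permutation p = 0.1, the smallest that 3 against 3 can give). Without CAP replicate 3 of day 6, Hdc (lower) and Mrgprb2 (higher) were past the study's threshold.

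Transcripts of some other cell types moved with the day as well. The summed level of 6 endothelial markers was 90.5 to 119 TPM in sham wounds at day 3 and 233 to 320 TPM at day 6, and in CAP-treated wounds 86.7 to 130 TPM and 75.3 to 197 TPM. Skeletal muscle markers were at 4164 to 6169 TPM and then 2562 to 3754 TPM in the sham group, and at 2151 to 5995 TPM and then 1970 to 2758 TPM under CAP. The macrophage marker Csf1r was at 148 to 212 TPM at day 3 and 159 to 257 TPM at day 6, with overlap. Of the 9 monocyte and macrophage genes, 5 were higher at day 6 with the treatments averaged, beside 46.4% of all genes. Ly6c2 was lower past the threshold (log2 difference -1.06), beside 3.26% of all genes past it in either direction. Fibroblast marker sums were 10384 to 23019 TPM and 15743 to 26189 TPM. The part of these shifts in the values of the mast cell genes was not tested. Basophils, which share the IgE receptor and Hdc, were near the floor by their defining proteases, with Mcpt8 from 0 to 0.54 TPM and Prss34 from 0 to 0.68 TPM. The summed eosinophil list lay between 1.14 and 3.41 TPM. Melanocytes, which also use Kit, had a list of 8 markers that summed to 2.57 to 5.05 TPM at day 3 and 3.11 to 6.74 TPM at day 6. Dct was at 0.13 to 1.26 TPM, Tyrp1 at 0 to 0.42 TPM, Mlana at 0 to 2.60 TPM and Sox10 at 0.55 to 2.15 TPM, and Tyr, Slc45a2 and Mc1r at no more than 0.10 TPM. Mlana, a melanosome protein gene, was higher at day 6 past the threshold with the treatments averaged (log2 difference 1.34, limma adjusted p = 0.247), in the direction of Kit. It was the 1 such gene of 5 melanocyte genes tested, beside 3.26% of all genes in either direction. In CAP-treated wounds alone Mlana differed by 0.10 between the days, where Kit differed by 0.82. Over both days Mlana was higher under CAP past the threshold (log2 difference 1.53), beside 1.87% of all genes in either direction, whereas Kit was lower by 0.40. Mlana averaged 0.18 TPM in sham wounds of day 3. The 5 melanocyte genes tested over both days ran from -0.72 to 1.53, with 1 higher and 1 lower at an unadjusted p under 0.05 in limma. Sox10 had differed by -0.67 under CAP at day 3 (limma unadjusted p = 0.0682), the direction of Kit. The part of melanocytes in the level of Kit was not tested.

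CAP made no difference past the threshold in any member at day 3. All 10 members overlapped between the groups, where 11.6% of all genes did not. The threshold was met by 0 of 10, beside 1.58% of all genes, and an unadjusted p under 0.05 in limma by 0 of 10, beside 6.60%. The log2 differences ran from -0.41 for Kit to 0.54 for Fcer1a, with a median of -0.04 beside -0.05 over all genes. For Cpa3 the difference was -0.02, with a 95% interval of -0.35 to 0.32. Intervals of the other members were wider, and that of Mrgprb2 ran from -0.87 to 1.42.

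At day 6, Mrgprb2 was higher and Hdc lower in CAP-treated wounds, and the other 8 members did not pass the threshold. Mrgprb2 was at 1.28, 0.99 and 2.27 TPM in the sham group and at 2.85, 4.39 and 2.41 TPM under CAP. The groups did not overlap, beside 8.01% of all genes without overlap and higher, and the peptide receptor gene was 2.11-fold higher under CAP (log2 difference 1.08, SE 0.367, limma unadjusted p = 0.0221, adjusted p = 0.226, exact permutation p = 0.1, the smallest that 3 against 3 can give). That is 1 of 10 members, beside 1.46% of all genes higher past the threshold. At day 3 the sham libraries had held 0.76, 3.06 and 1.02 TPM and the CAP-treated wounds 1.49, 1.73 and 1.76 TPM, so that 1 sham library of day 3 exceeded 2 of the 3 CAP libraries of day 6. The related receptor gene Mrgprb1, whose groups overlapped, differed by 0.29 at day 6 (limma unadjusted p = 0.512).

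Hdc was at 51.2, 65.2 and 28.3 TPM in the sham group and at 12.3, 5.92 and 38.2 TPM in CAP-treated wounds at day 6. The CAP library at 38.2 TPM lay inside the sham range. The gene was 3.22-fold lower under CAP (log2 difference -1.69, SE 0.653, limma unadjusted p = 0.0362, adjusted p = 0.240, exact permutation p = 0.2), which is 1 of 10 members beside 2.34% of all genes lower past the threshold. CAP replicate 2 stood apart from the rest of its group, with 90354 TPM of keratinocyte markers and 75.3 TPM of endothelial markers. Without it the log2 difference was -1.07 for Hdc and 0.83 for Mrgprb2, with limma unadjusted p values of 0.0932 and 0.0693. Without CAP replicate 3, the library at 38.2 TPM, the log2 difference of Hdc was -2.40 (limma adjusted p = 0.0353). The limma adjusted p of Hdc thus ranged from 0.0353 to 0.478 over 12 alternatives. Both calls were also lost without sham replicate 1 or without sham replicate 2, and that of Hdc without CAP replicate 1.

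Over both days, 0 of 10 members were past the threshold for CAP, beside 1.87% of all genes in either direction. Kit and Hdc were lower at an unadjusted p under 0.05, beside 13.5% of all genes lower at that p. Kit was lower by 0.40 on the log2 scale (SE 0.151, limma adjusted p = 0.214, exact permutation p = 0.02) and in the group mean at each day. Hdc differed by -0.98 (SE 0.443, limma adjusted p = 0.280, exact permutation p = 0.12). The 95% intervals of the main granule proteases ran from -0.51 to 0.31 for Cpa3, -0.67 to 0.22 for Cma1, -0.55 to 0.27 for Mcpt4 and -0.54 to 0.44 for Tpsb2, each within 2-fold. The CAP effects of the 2 days differed past the threshold for 0 of 10 members, beside 4.90% of all genes. For Hdc the difference between the effects was -1.41 (limma adjusted p = 0.527), for Fcer1a -1.12 (limma adjusted p = 0.489) and for Mrgprb2 0.80 (limma adjusted p = 0.621). The other 7 lay between -0.17 and 0.16, and 0 members had an unadjusted p under 0.05.

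At day 6, the summed keratinocyte and endothelial markers of CAP-treated wounds did not overlap with those of the sham group. Gene by gene, 3 of 6 keratinocyte markers were higher past the threshold (Krt10, Krt1 and Krt15), beside 1.46% of all genes. Their log2 differences ran from -0.24 to 1.86. Of 6 endothelial markers, 3 were lower past it, beside 2.34% of all genes, with differences from -1.23 to -0.02. Keratinocyte markers summed to 42914 to 90354 TPM, against 24832 to 27807 TPM in the sham group, and endothelial markers to 75.3 to 197 TPM against 233 to 320 TPM. Neutrophil markers overlapped, at 280.8 to 2675 TPM and 1769 to 3319 TPM, as did the neutrophil gene S100a8, at 97.9 to 962 TPM and 591 to 1160 TPM. Monocyte and macrophage markers overlapped as well, at 5003 to 10836 TPM and 8273 to 12218 TPM. Erythroid markers overlapped at day 6, at 716 to 3184 TPM under CAP and 2113 to 5622 TPM in the sham group. At day 3 they had not, at 2356 to 2803 TPM under CAP and 514 to 753 TPM in the sham group. All 5 erythroid genes were then higher under CAP past the threshold, beside 1.58% of all genes in either direction, and 3 had a limma adjusted p under 0.05. Adipocyte markers lay between 60.98 and 221.7 TPM over all libraries. Their part in the values of Hdc, Mrgprb2 and Kit was not tested.

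The members divided by how they varied over the 12 libraries. Each was correlated (Pearson's r of log2(TPM + 0.1)) with the mean of the other members, as a description, since the libraries share groups, depth and tissue composition. The value was 0.958 for Cpa3, 0.952 for Cma1, 0.944 for Mcpt4 and 0.885 for Tpsb2. Among these 4 the pairwise r lay between 0.882 and 0.970, and Cma1 and Mcpt4 were the closest pair. Kit followed at 0.784, Ms4a2 at 0.690, Fcer1a at 0.596 and Tpsab1 at 0.587. Mrgprb2, at 0.292, and Hdc, at 0.0686, were lowest, and their r with each other was -0.64. Mrgprb2 reached 0.640 with Tpsb2 and 0.550 with Tpsab1. With the group means taken out, the r was 0.953 for Cpa3, 0.910 for Cma1, 0.858 for Mcpt4, 0.837 for Tpsb2 and 0.787 for Ms4a2. It was 0.496 for Kit, 0.339 for Fcer1a, 0.314 for Mrgprb2, -0.0168 for Tpsab1 and -0.277 for Hdc.

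**Figure D3:**
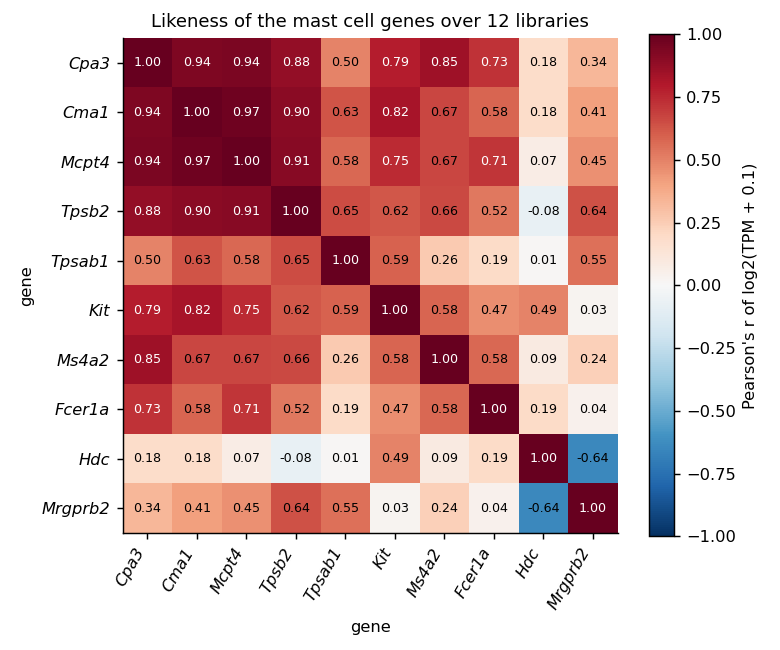
Pearson's r of log2(TPM + 0.1) between each pair of mast cell genes over 12 libraries, from -1 (blue) to 1 (red), with the value in each cell. The 4 main granule proteases form a block at 0.88 or above, and Hdc reaches no more than 0.49 with any other member.

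Outside the members, 16161 genes of 1 TPM or more on average were ranked by their r with the mean of all 10. The 8 highest were Slco2b1 (0.951), Igip (0.945), Natd1 (0.931), Rnf180 (0.927), Oxa1l (0.911), Gas6 (0.899), Gxylt2 (0.899) and Fbln5 (0.897). Slco2b1 encodes an organic anion transporter, Gas6 a ligand of the TAM receptor kinases and Fbln5 an elastic fibre protein. None is a mast cell marker of the lists used here.

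Hdc was therefore set beside 16168 other genes on its own, in a ranking made after its values were seen. Nos2 (inducible nitric oxide synthase) had an r of 0.969 with it, Trem1 (a receptor of neutrophils and monocytes) 0.968, Samsn1 0.960, Arrb1 0.947, Il1b (interleukin 1 beta) 0.946 and Snai1 0.946. Srgn, the core proteoglycan of mast cell granules that other blood cells also make in quantity, had an r of 0.894. Sham replicate 2 of day 6 showed the split, with the highest Hdc of all libraries (65.2 TPM) and a Cpa3 level (20.3 TPM) within the day 3 range. The ratio of Hdc to Cpa3 accordingly spanned 0.247 to 3.21, whereas that of Mcpt4 to Cpa3 spanned 0.952 to 1.45.

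**Figure D4:**
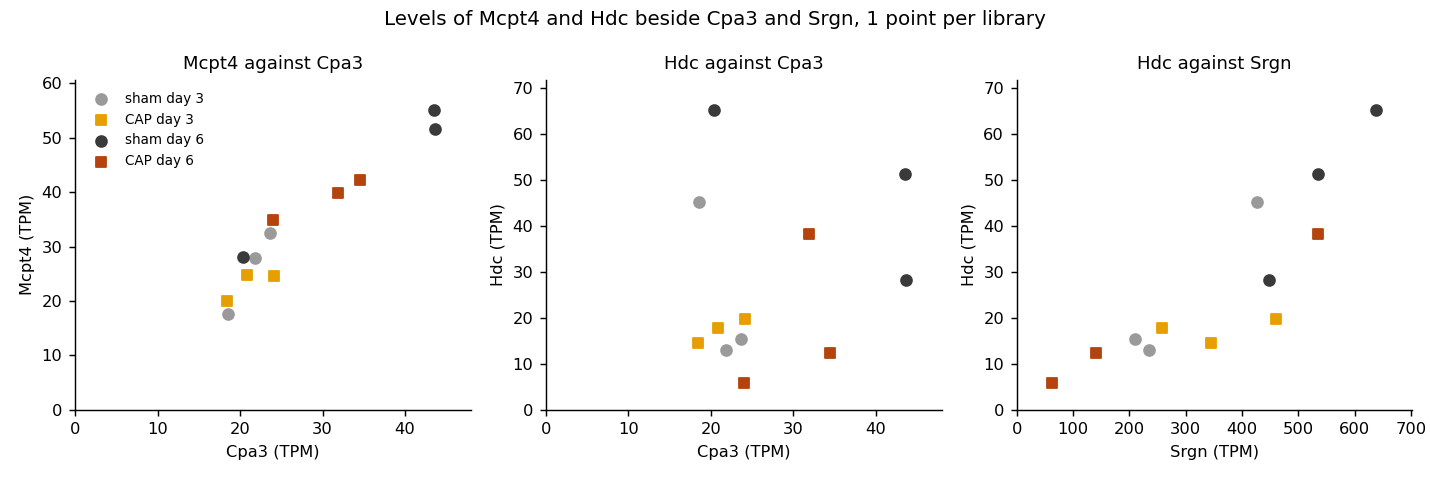
TPM of Mcpt4 against Cpa3, of Hdc against Cpa3 and of Hdc against Srgn, 1 point per library, with sham in grey circles and CAP in orange squares (day 3 light, day 6 dark). Mcpt4 lies along a line with Cpa3, Hdc does not, and Hdc and Srgn are both lowest in the same CAP library of day 6, at 5.92 and 62.3 TPM.

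Other genes of mast cells were read from a list of 22, of which 16 were tested between the days with the treatments averaged. The study's threshold was passed by 1 gene upwards and 1 downwards, beside 3.26% of all genes in either direction. At an unadjusted p under 0.05, 6 were higher and 2 lower, beside 7.18% and 9.81% of all genes. The median log2 difference was 0.23, beside 0.67 for the members. The summed level of the list was lower at day 6, at 95.1 to 106.9 TPM against 110.8 to 122.2 TPM at day 3 with no overlap, and Rab27b, Il1rl1, Mitf and Maob make up most of it. The sum thus went against the count of genes, since 11 of the 16 tested had a positive difference, beside 46.4% of all genes. Tph1, the enzyme of peripheral serotonin synthesis, rose from 0.05 to 0.33 TPM at day 3 to 0.27 to 0.85 TPM at day 6 (log2 difference 1.58, SE 0.352, limma adjusted p = 0.0572). Mrgprb1 (0.83, unadjusted p = 0.0183) and the vesicular monoamine transporter Slc18a2 (0.72, unadjusted p = 0.0263), which loads histamine and serotonin into granules, had positive differences short of 2-fold in limma. The transcription factor Tal1 rose in sham wounds, from 0.75 to 1.06 TPM to 1.93 to 2.76 TPM (log2 difference 1.35, limma adjusted p = 0.0473), and is also expressed in endothelial and erythroid cells. Gata2 differed by 0.23 (unadjusted p = 0.233) and Mitf by -0.18 (unadjusted p = 0.260) in limma. Tpsg1, a membrane-anchored tryptase, was listed between 0 and 0.67 TPM.

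Il1rl1, which encodes the receptor ST2 for interleukin 33 on mast cells and on other immune cells, went the opposite way. It was at 27.5, 32.4 and 23.6 TPM (sham) and 27.6, 21.3 and 28.9 TPM (CAP) at day 3, and at 13.4, 21.2 and 13.9 TPM (sham) and 7.74, 7.80 and 12.4 TPM (CAP) at day 6. All 6 day 6 libraries lay below all 6 of day 3. The gene fell by 1.15 on the log2 scale (SE 0.162, limma adjusted p = 0.0137). In CAP-treated wounds alone it fell by 1.49 and was past the threshold (limma adjusted p = 0.236). Its CAP effect at day 6 was -0.79 (limma unadjusted p = 0.0178), short of 2-fold, with 1 CAP library of day 6 within 1 TPM of the lowest sham library.

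**Figure D5:**
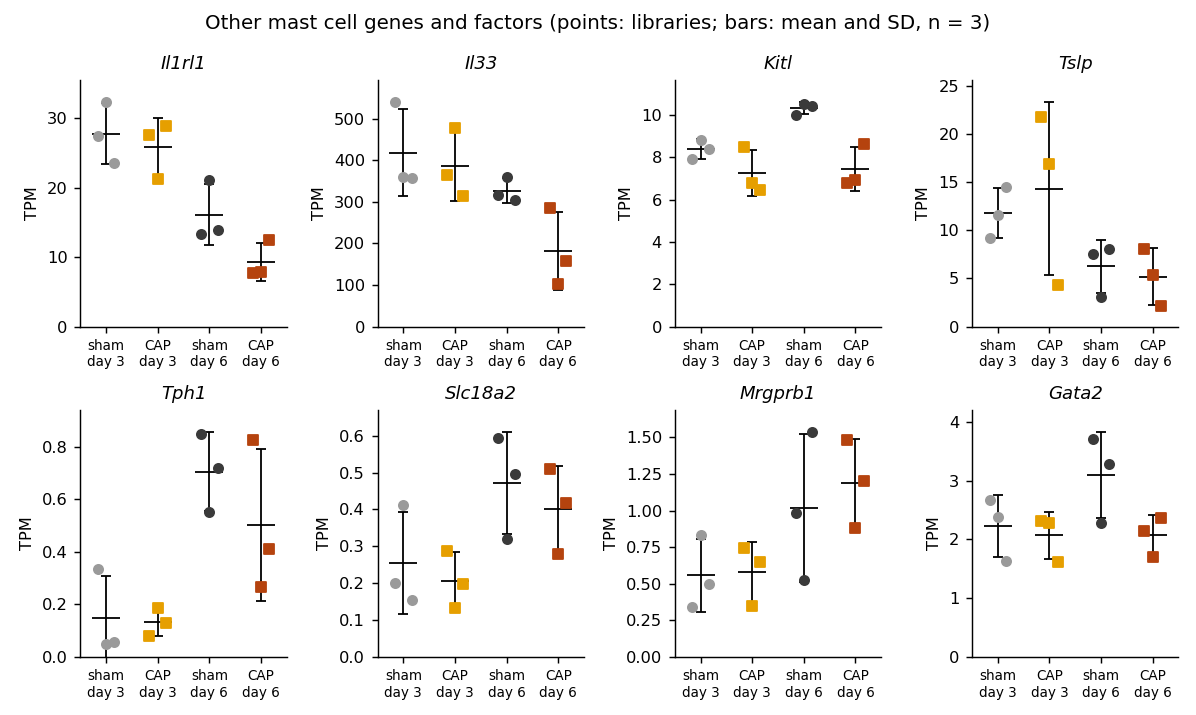
TPM of Il1rl1, Il33, Kitl, Tslp, Tph1, Slc18a2, Mrgprb1 and Gata2 in each library (points) with the mean and SD of 3 libraries (bars), by group; each panel has its own y axis from 0. Il1rl1 is lower in all 6 libraries of day 6 than in all 6 of day 3, and Kitl is at 10.0 to 10.5 TPM in sham wounds of day 6, above all other libraries.

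Of 11 factors that feed or activate mast cells, 5 were tested. All 5 had a negative CAP difference at day 6 (-0.97 to -0.34), where 34.3% of all genes had a positive one, and 0 of 5 passed the threshold (3 were lower at an unadjusted p under 0.05 in limma, beside 12.5% of all genes). With the treatments averaged, the threshold between the days was passed by 1 of 5, beside 3.26% of all genes in either direction. It was the epithelial cytokine gene Tslp (log2 difference -1.17, limma adjusted p = 0.199). Il33, the ligand of ST2, fell past the threshold in CAP-treated wounds, 1 of 5 beside 2.79% of all genes in either direction. It went from 364, 479 and 315 TPM at day 3 to 285, 102 and 158 TPM at day 6 (log2 difference -1.20, limma adjusted p = 0.351). Its difference between CAP and sham at day 6 was -0.97 (limma unadjusted p = 0.0246), just short of 2-fold. Kitl, the KIT ligand gene, was at 10.0, 10.5 and 10.4 TPM in sham wounds of day 6 and at 6.77, 6.93 and 8.62 TPM in CAP-treated wounds (log2 difference -0.48, SE 0.145, limma unadjusted p = 0.0132, adjusted p = 0.212). Over both days Kitl was lower under CAP by 0.35 on the log2 scale (limma unadjusted p = 0.00433, adjusted p = 0.155), beside 13.5% of all genes lower at an unadjusted p under 0.05. Kit was lower as well, in a comparison where 33.5% of all genes had a positive difference. The genes for interleukins 3 and 9 were listed at 0 in all libraries, and Tac1, the substance P precursor, at 0 in 10 of 12.

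The remaining pathway lists hold genes that many cell types express. Of 14 genes of IgE receptor signalling, 0 passed the threshold in the averaged day comparison, beside 3.26% of all genes in either direction. Lat2 was lower at an unadjusted p under 0.05 in limma, beside 9.81% of all genes, and the median was -0.04. Under CAP at day 6, 1 of the 14 had a positive difference, beside 34.3% of all genes, with a median of -0.55 beside -0.12. There 3 were lower at an unadjusted p under 0.05 in limma, beside 12.5% of all genes, and 0 passed the threshold. The adaptor gene Lat2 fell past the threshold in CAP-treated wounds (log2 difference -1.47, limma adjusted p = 0.328), beside 2.79% of all genes in either direction. The CAP effects of the 2 days differed past the threshold for the adaptor gene Gab2 (-1.02, limma adjusted p = 0.428), beside 4.90% of all genes. Of 9 genes of the granule matrix and heparin synthesis, Srgn alone was past the threshold under CAP at day 6, beside 2.34% of all genes lower past it. Srgn was at 141, 62.3 and 536 TPM under CAP against 535, 639 and 447 TPM in the sham group (log2 difference -1.67, limma adjusted p = 0.256). CAP replicate 3 of day 6 held the high values of Srgn and Hdc alike. Of the histamine pathway, 5 of 8 genes were tested and 0 passed in any comparison. Between the days with the treatments averaged, 2 were higher at an unadjusted p under 0.05 in limma (Slc18a2 and Hnmt), beside 7.18% of all genes. Of 6 genes of eicosanoid synthesis, Ptgs2 (cyclooxygenase 2) was higher past the threshold between the days (1.06, limma adjusted p = 0.104), beside 3.26% of all genes in either direction. In the sham group alone it was higher by 1.65, beside 2.13% of all genes higher past the threshold. Under CAP at day 6 it was lower (-1.36, limma adjusted p = 0.217), beside 2.34% of all genes lower past the threshold. The basophil list held 1 further gene past the threshold, the receptor chain gene Il3ra, which macrophages and endothelial cells also express. Its CAP effects of the 2 days differed (-1.02, limma adjusted p = 0.428), beside 4.90% of all genes.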

How the data were processed

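RNA of 12 wound samples was sequenced by the authors with the SureSelect XT HS2 mRNA kit as paired-end reads. Per the methods and the submitters' processing notes, reads were trimmed with Trimmomatic 0.36, referred to mm10 and quantified with StringTie. For the aligner, the annotation release and the strand setting, the sources used here give nothing. The authors deposited 1 table per library with TPM for 55487 genes, in which 0.0001 stands in place of 0 and each column sums to between 1000003.08 and 1000003.23. The depth is unknown, because TPM keeps none, so no counting error can be given and the precision rests on 3 libraries per group. Between 18533 and 19325 genes per library were at 0.3 TPM or more. The tables had the coordinates of GENCODE M21 for 54777 genes.

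Values entered the analysis as log2(TPM + 0.1), which understates the differences of low genes, and fitted with limma 3.58.1 (R 4.3.3, intensity trend, not robust) over every gene whose mean reached 0.3 TPM in each of the groups compared, or in 1 or more of the 4 groups for the comparisons over 12 libraries. Adjusted p-values are Benjamini-Hochberg's. The threshold was the study's, an unadjusted p under 0.05 with a 2-fold difference. Exact permutation tests over libraries were 2-sided, with 0.1 as the smallest p for 3 against 3 and 0.005 within treatments or days. Python 3.11.15 with numpy 2.4.6, pandas 2.3.3, scipy 1.17.1 and matplotlib 3.10.9 did the rest.

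The members and gene lists were chosen with earlier results of these data known. Named were all members, every gene of the mast cell lists past the threshold, 10 further mast cell genes, defining markers of other cell types and the 8 genes most like the members. The genes most like Hdc were chosen after its values were seen. Promoters are RefSeq's (GRCm38.p6). Alternatives were a pseudocount of 1 TPM, no filter, a joint fit, the replicate number as a block, median-ratio scaling, quantile normalization and leaving out each library.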

Additional observations from a re-analysis of the deposited data

How the results depend on the processing

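The differences between the days averaged over both treatments kept their direction under all 17 alternatives for all 10 members, and 0 members passed the threshold under any of them. The number of members higher at an unadjusted p under 0.05 lay between 5 and 8. Of 42 differences over 0.25 on the log2 scale, 3 changed sign and 13 changed side of the threshold under an alternative, and 547 of 584 alternative values kept both. Of 28 smaller differences, 21 changed sign. For CAP at day 6, 2 members passed the threshold, against 1 with a pseudocount of 1 TPM (Hdc), 1 with no filter (Mrgprb2) and 0 with the replicate block, and 0 to 2 when 1 library was left out. For sham wounds between the days, 1 member passed, against 0 with a pseudocount of 1 TPM and 2 with the replicate block, and 1 to 4 without 1 library. Members higher there at an unadjusted p under 0.05 numbered 5, against 3 with the replicate block and 2 to 6 without 1 library (2 without sham replicate 1 or 3 of either day). For CAP-treated wounds between the days, 6 were higher at that p, against 3 in the joint fit, and 0 to 2 members passed the threshold without 1 library. For CAP over both days, and for the difference between the CAP effects, 0 members passed, against 0 to 1 without 1 library. The former was Hdc, without sham replicate 2 or 3 of day 3 or replicate 3 of either group at day 6. The latter was reached without sham replicate 1 or 3 of day 3, sham replicate 2 of day 6 or CAP replicate 3 of day 6. Without 1 library, the CAP difference at day 3 ran from -0.61 to 0.28 for Hdc and from -0.10 to 0.84 for Mrgprb2, and the day difference in CAP-treated wounds from -1.004 to 0.33 for Hdc. The cause was not tested.

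Same-numbered libraries share only a number. Their deviations correlated at -0.17 to 0.0328 between sham and CAP at day 3, at 0.0322 to 0.117 at day 6, at 0.0256 to 0.0426 between the sham days and at -0.0014 to 0.289 between the CAP days. All 6 libraries correlated best with their own number between sham and CAP at day 6 and between the sham days, and 2 of 6 in the other comparisons, which is a hint from the data and not from the design. With only 3 libraries per group and unknown depth, the limma intervals of the low genes Ms4a2, Tpsab1 and Fcer1a were wide. Between the days with the treatments averaged, that of Ms4a2 spanned both signs (-0.29 to 1.11 on the log2 scale). Those of Tpsab1 (0.26 to 1.26) and Fcer1a (0.04 to 1.43) were positive throughout. For CAP at day 6 all 3 spanned both signs (-1.08 to 1.47, -0.72 to 0.93 and -1.65 to 0.50). Small differences of these genes may have gone undetected.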
